A study of Mus musculus with 6 samples.

Results

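The CXC chemokines are small secreted proteins in which a single residue separates the first of the conserved cysteines, and they steer leukocytes along gradients by binding G protein-coupled receptors. Members with a glutamate-leucine-arginine motif before these cysteines, such as CXCL1 and CXCL2, attract neutrophils through CXCR2, while CXCL9 and CXCL10 are classical products of interferon signaling that attract T and NK cells through CXCR3. CXCL12 retains hematopoietic cells in the marrow through CXCR4, CXCL16 is made as a membrane protein whose receptor is CXCR6, and platelet factor 4 (PF4, also CXCL4) is best known from platelet granules but is also made by macrophages. CXCL14 is expressed in many epithelial and stromal tissues. The 8 genes *Cxcl1*, *Cxcl2*, *Cxcl9*, *Cxcl10*, *Cxcl12*, *Cxcl14*, *Cxcl16* and *Pf4* were taken by symbol from 22248 genes with deposited RNAseq values.

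The values come from bone-marrow-derived macrophages (BMDMs), grown from C57BL/6 marrow in medium with macrophage colony-stimulating factor and left unstimulated. The control group held 3 libraries from *Lyz2* cre mice, and the CITED2-deficient group held the same number from mice that also carried *Cited2* fl/fl. Both groups carry the Cre recombinase allele at *Lyz2*, a gene of myeloid cells, so only cells that have expressed *Lyz2* can lose the floxed *Cited2* alleles, and other marrow cells in the culture keep them. The labels put the mice at postnatal week 10, while the methods of the study name a younger age. CITED2 is a nuclear regulator that binds CBP/p300, and the study asked how its loss in macrophages bears on inflammatory gene expression. Levels are in FPKM, which are fragments scaled to transcript length and library size. *Cited2* ranged from 71.7 to 79.3 FPKM in control BMDMs and from 7.22 to 9.27 in CITED2-deficient BMDMs, so every library matched its label. The macrophage genes *Adgre1* and *Csf1r* were at or above 1748 and 906 FPKM in every library. Both were called lower in CITED2-deficient BMDMs, with means of 1776 against 2214 and 916 against 1135 FPKM in control. Of 8 macrophage markers 1 was called higher and 5 lower, where 16.7% and 34.6% of all tested genes were. After median-ratio or quantile scaling 3 were higher and 5 lower. The depth recovered from the FPKM was 17289286 to 18952077 fragments in control libraries and 22583995 to 26100410 in CITED2-deficient libraries. CITED2-deficient replicate 1 stood apart in collagen genes of the stromal marker list. The list summed to 542 FPKM there, against 171 and 172 in the other CITED2-deficient libraries. Most of the gap lay in *Col1a1* (305 against 62.0 and 62.6) and *Col1a2* (175 against 66.3 and 63.6). *Dcn* (6.83 against 6.18 and 7.53) did not stand apart. Values without this library are given beside *Cxcl12*, *Cxcl14* and the genes that moved with them.

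CITED2-deficient BMDMs held more RNA of *Cxcl10*, *Cxcl12*, *Cxcl9*, *Cxcl2* and *Cxcl16* and less of *Pf4*. The differences ran from 11.0 times higher for *Cxcl10* to 4.24 times lower for *Pf4*, as ratios of mean FPKM. *Cxcl1* and *Cxcl14* did not pass the test. In limma on log2(FPKM + 1), with Benjamini-Hochberg adjustment over 11687 genes and a threshold of 0.05, 5 of the 8 chemokines were therefore higher, 1 was lower and 2 were not called. *Cxcl1* and *Cxcl9* entered the test only through the CITED2-deficient libraries, where their means were above the minimum of 1 FPKM, so this tally is a description. Over all tested genes 16.7% were called higher and 34.6% lower, and 51.3% were called in either direction. The median log2 fold change was 0.67 over the 8 chemokines and -0.10 over all tested genes. The share of all calls that were higher depended on the scaling, with 32.5% for the FPKM as deposited, 50.5% after median-ratio scaling and 42.0% after quantile normalization. None of the 8 chemokine calls changed under these scalings. The 3 libraries of each genotype did not overlap for 6 of the 8 genes, against 59.9% of all tested genes, with 19% higher and 40.9% lower.

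**Figure D1:**
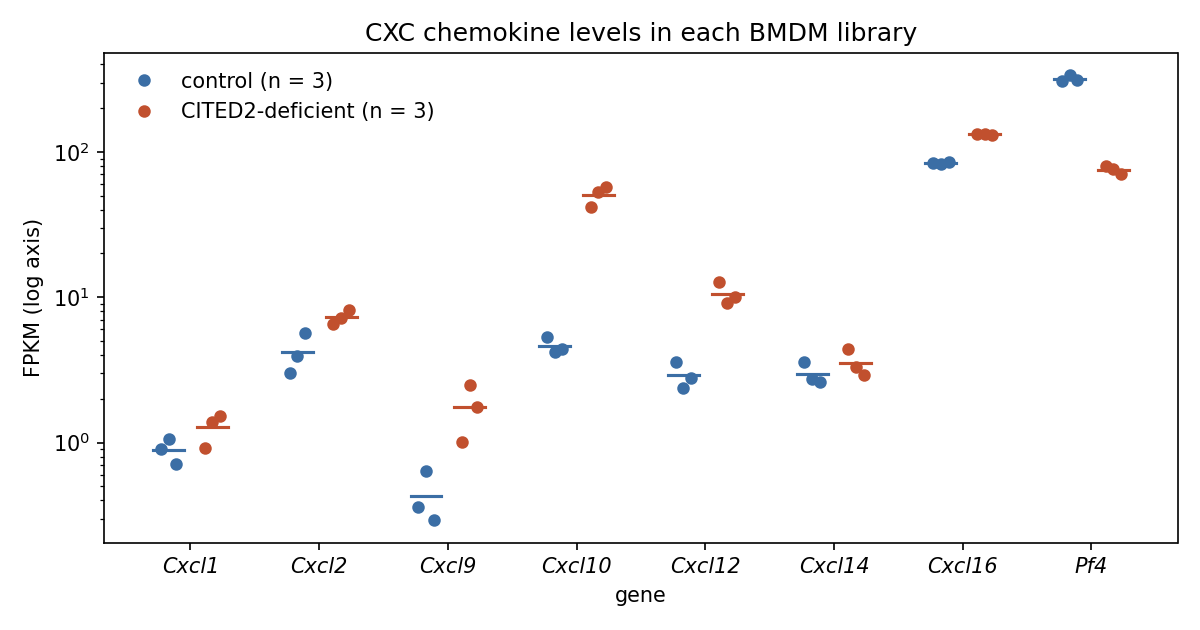
FPKM (log axis) of the 8 CXC chemokines in each library, with control in blue, CITED2-deficient in red and a bar at each mean (n = 3 each). The points do not overlap for *Cxcl2*, *Cxcl9*, *Cxcl10*, *Cxcl12*, *Cxcl16* and *Pf4*, and they overlap for *Cxcl1* and *Cxcl14*.

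The promoters of the chemokines that moved most, or that share an induction pathway, are shown first, since interferon and NFkB signals reach these genes through short elements near the start. Sequences of 250 bases before the start were taken from RefSeq in GRCm38.p6 (mm10) and 7 of the 8 genes were matched. They are written 5′ to 3′ on the strand of the gene, and capitals mark matches to the IRF element (GAAA repeated after any 2 bases), the interferon element GAS (TTCNNNGAA) or the kappaB consensus on either strand. *Cxcl10* and *Cxcl9* represent the interferon-inducible pair, *Cxcl1* and *Cxcl2* the NFkB-inducible pair, and *Pf4* the gene that fell.
Cxcl10, chr5:92348890-92349139 (-): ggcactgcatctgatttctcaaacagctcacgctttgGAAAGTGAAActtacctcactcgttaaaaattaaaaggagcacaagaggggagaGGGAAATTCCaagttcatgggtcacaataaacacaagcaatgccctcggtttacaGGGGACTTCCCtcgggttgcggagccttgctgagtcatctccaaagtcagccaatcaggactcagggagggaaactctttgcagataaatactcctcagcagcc
Cxcl9, chr5:92328080-92328329 (-): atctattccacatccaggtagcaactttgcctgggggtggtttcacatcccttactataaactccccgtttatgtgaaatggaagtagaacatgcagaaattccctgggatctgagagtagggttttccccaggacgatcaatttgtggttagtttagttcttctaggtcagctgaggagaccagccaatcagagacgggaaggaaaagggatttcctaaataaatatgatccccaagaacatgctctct
Cxcl1, chr5:90890995-90891244 (+): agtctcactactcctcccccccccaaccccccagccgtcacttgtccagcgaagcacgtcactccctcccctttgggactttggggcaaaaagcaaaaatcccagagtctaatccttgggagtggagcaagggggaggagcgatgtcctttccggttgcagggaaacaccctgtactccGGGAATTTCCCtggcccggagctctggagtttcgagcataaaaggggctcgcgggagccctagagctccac
Cxcl2, chr5:90903649-90903898 (+): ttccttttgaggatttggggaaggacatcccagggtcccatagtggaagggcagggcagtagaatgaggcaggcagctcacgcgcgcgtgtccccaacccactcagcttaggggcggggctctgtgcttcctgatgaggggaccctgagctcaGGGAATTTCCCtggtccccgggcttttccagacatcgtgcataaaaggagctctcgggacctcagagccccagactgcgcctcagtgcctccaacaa
Pf4, chr5:90772185-90772434 (+): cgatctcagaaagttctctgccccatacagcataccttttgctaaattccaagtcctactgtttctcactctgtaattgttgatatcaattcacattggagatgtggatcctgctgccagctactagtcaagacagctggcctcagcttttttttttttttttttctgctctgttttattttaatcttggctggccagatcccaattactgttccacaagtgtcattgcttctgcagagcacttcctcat

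The *Cxcl10* window held an IRF element 213 bases before the start and kappaB matches at 159, 104 and 103 bases, the last a pair that overlaps in all but 1 base on each side. The *Cxcl1* and *Cxcl2* windows each held the same 11-base stretch, GGGAATTTCCC. It matches the kappaB consensus at 71 and 70 bases before the start in *Cxcl1* and at 97 and 96 bases in *Cxcl2*. *Cxcl14*, whose level did not pass the test, held a GAS match at 191 bases and an IRF element at 172 bases. The windows of *Cxcl9*, *Cxcl12* and *Pf4* held no match. Among 32851 mouse promoter windows of the same length, 2.98% held the IRF element, 7.02% GAS and 7.25% the kappaB consensus. These matches describe the letters in the window and not binding.

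*Cxcl10* (ENSMUSG00000034855, chromosome 5, 92346638 to 92348889, mm10) had the largest rise of the 8 genes. Control replicates 1, 2 and 3 had 5.31, 4.19 and 4.41 FPKM, and the CITED2-deficient libraries, in the same order of replicates, had 41.9, 53.1 and 57.7 FPKM. Every CITED2-deficient library lay far above every control library, and replicate 1 was the lowest of them. The means were 4.64 ± 0.592 and 50.9 ± 8.15 (SD, n = 3 each), a log2 difference of 3.20 with standard error 0.12 (limma, adjusted p = 5.12e-08). It held place 20 when the 11687 genes were ordered from the largest rise. The gene overlaps the opposite-strand gene *Art3* over 133 exon bases, but *Art3* stayed at or below 0.269 FPKM in every library.

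*Cxcl9* (ENSMUSG00000029417, chromosome 5, 92321347 to 92328079) lies next to *Cxcl10* and binds the same receptor, but was scarce. Its FPKM was 0.357, 0.639 and 0.292 in control and 1.01, 2.47 and 1.76 in CITED2-deficient libraries, which rested on 11, 18 and 9 against 42, 91 and 75 fragments. The groups did not overlap, although the spread within each was wide, with a coefficient of variation of 43.0% in control and 41.7% in CITED2-deficient BMDMs. The log2 difference was 0.92 with standard error 0.21 (limma, adjusted p = 0.00612). At this level the added pseudocount of 1 shrinks the estimate, and limma-voom on the recovered fragments gave 1.96 (adjusted p = 0.000968). *Cxcl9* passed the expression filter of a mean FPKM of 1 only through the CITED2-deficient libraries, since its control mean was 0.429. The ratio of *Cxcl10* to *Cxcl9* FPKM was 14.9, 6.56 and 15.1 in control and 41.3, 21.5 and 32.7 in CITED2-deficient libraries. *Cxcl10* was thus the more abundant of the pair in all 6 libraries, by a wider margin in CITED2-deficient BMDMs, and the difference in ratio was not tested.

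*Cxcl2* (ENSMUSG00000058427, chromosome 5, 90903871 to 90905938) encodes a neutrophil attractant that macrophages release early after Toll-like receptor signals. Its FPKM was 3.00, 3.92 and 5.68 in control and 6.53, 7.18 and 8.13 in CITED2-deficient libraries. The highest control library came close to the lowest CITED2-deficient library, without overlap. The log2 difference was 0.70 with standard error 0.17 (limma, adjusted p = 0.00766). Of its 50-base transcript windows, 5.84% also occur in *Cxcl3*, which did not exceed 0.412 FPKM.

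*Cxcl1* (ENSMUSG00000029380, chromosome 5, 90891241 to 90893115), a close relative of *Cxcl2* and another CXCR2 ligand, was near the detection floor. Its FPKM was 0.899, 1.07 and 0.710 in control and 0.920, 1.38 and 1.52 in CITED2-deficient libraries, from 19 to 56 fragments. CITED2-deficient replicate 1 lay within the control range, and the other libraries of that group lay above it. The log2 fold change was 0.26 with a 95% interval from -0.10 to 0.62 (adjusted p = 0.201 from limma), so a change was not detectable at this depth. The ratio of means was 1.43, and the log2 difference was 0.46 with a pseudocount of 0.1 and 0.49 by limma-voom on fragments (adjusted p = 0.221 and 0.193). Whether *Cxcl1* and *Cxcl2* differ in their change was not tested.

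*Cxcl16* (ENSMUSG00000018920, chromosome 11, 70453983 to 70459984) encodes the transmembrane chemokine that also serves as a scavenger receptor for oxidized lipoprotein. It was the most evenly measured member, at 84.5, 82.2 and 85.3 FPKM in control and 132, 133 and 131 in CITED2-deficient libraries. Groups were far apart relative to their spread, which was 1.92% and 0.749% of the mean. The log2 difference was 0.64 with standard error 0.03 (limma, adjusted p = 2.45e-07), a ratio of means of 1.57. The gene overlaps *Zmynd15* on the opposite strand over 552 exon bases, and *Zmynd15* was at 15.1 ± 0.553 and 19.6 ± 0.744 FPKM (SD, n = 3 each). Libraries were stranded, but the use of strand in counting is a setting not given in the sources used here.

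*Pf4* (ENSMUSG00000029373, chromosome 5, 90772435 to 90773383) was the only member that fell. Its FPKM was 310, 337 and 313 in control and 79.7, 75.9 and 70.6 in CITED2-deficient libraries. The groups were far apart, and no library of either group stood out. The means were 319.7 ± 15.1 and 75.4 ± 4.58 (SD, n = 3 each), a log2 difference of -2.07 with standard error 0.05 (limma, adjusted p = 3.19e-09). It held place 23 when tested genes were ordered from the largest fall. Among tested genes ordered by level, *Pf4* moved from place 320 in control to place 1536 in CITED2-deficient BMDMs. Platelet granules are the classical source of PF4, so megakaryocyte and platelet markers were read beside it. Of 10 such genes 9 were in the matrix, with overlapping summed FPKM of 11.9 to 14.0 in control and 12.6 to 15.5 in CITED2-deficient libraries. Of the 5 tested 2 were higher (*Itga2b* and *Clec1b*), 1 was lower (*Treml1*) and 2 were not called. Among all tested genes, 51.3% were called in either direction. *Clec1b* entered the test only through the CITED2-deficient libraries. The *Itga2b* call was lost without CITED2-deficient replicate 1 (log2 difference 0.26) or control replicate 1 (0.38) or 2 (0.31). It was also lost by limma-voom (adjusted p = 0.0506) and by limma without a filter (adjusted p = 0.0925). The *Treml1* call was lost without CITED2-deficient replicate 2 (-0.29) or control replicate 3 (-0.27). Limma after median-ratio scaling (adjusted p = 0.0501) or without a filter (adjusted p = 0.0536) ended it too. The defining marker *Gp9* stayed at or below 0.591 FPKM. Of 8 tested neutrophil-precursor genes 6 were called lower, as *Pf4* was, against 34.6% of all tested genes. Their median log2 difference was -0.70. *Ltf* was called higher, at 94.3 ± 4.77 and 177 ± 13.2 FPKM (SD, n = 3 each; 0.90, adjusted p = 1.99e-06 from limma), and *S100a9* was not called (-0.11, adjusted p = 0.216 from limma). *S100a9* was called lower by limma without CITED2-deficient replicate 1 (-0.18, adjusted p = 0.0136) and with the replicate number as a block (adjusted p = 0.0488). *Mpo* (-2.54), *Prtn3* (-2.12) and *Elane* (-2.08), which encode granule proteins of these precursors, had the largest falls, while the summed level of the 9 listed genes overlapped, at 740 to 810 FPKM in control and 661 to 780 in CITED2-deficient libraries. *Ly6g* stayed at or below 0.802 FPKM. *Lyz2*, the gene that carries the Cre allele, was at 31.3 ± 1.03 and 9.75 ± 0.333 FPKM (SD, n = 3 each). The part of these differences in that of *Pf4* was not tested.

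**Figure D2:**
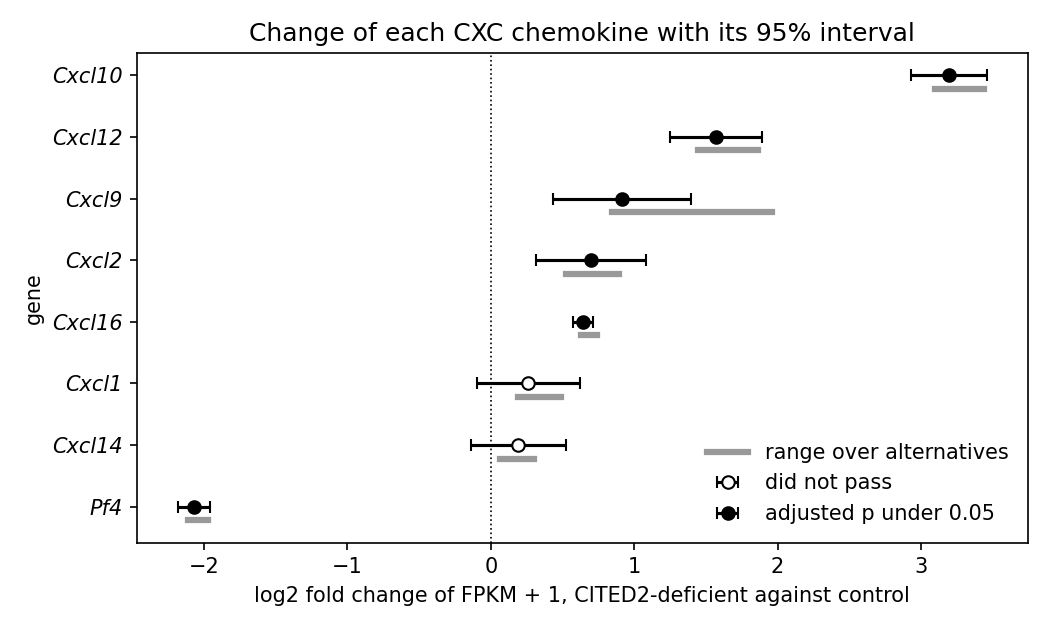
Log2 fold change of FPKM + 1 of each member, CITED2-deficient against control, with its 95% interval from limma (filled points passed an adjusted p of 0.05, open points did not) and, in grey, the range over the alternative analyses. *Pf4* is the only member left of 0, and the intervals of *Cxcl1* and *Cxcl14* cross 0.

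*Cxcl12* (ENSMUSG00000061353, chromosome 6, 117168535 to 117181367) is the stromal chemokine that anchors hematopoietic progenitors. Its FPKM was 3.58, 2.38 and 2.76 in control and 12.7, 9.11 and 9.97 in CITED2-deficient libraries. Groups did not overlap, and replicate 1 was the highest library of each group. The log2 difference was 1.57 with standard error 0.14 (limma, adjusted p = 2.1e-05). *Cxcl14* (ENSMUSG00000021508, chromosome 13, 56288643 to 56296551) had 3.60, 2.74 and 2.59 FPKM in control and 4.40, 3.33 and 2.93 in CITED2-deficient libraries. Replicate 1 was again the highest of each group and the groups overlapped, with a log2 fold change of 0.19 and a 95% interval from -0.14 to 0.52 (adjusted p = 0.302 from limma).

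Stromal genes moved with *Cxcl12*. All 10 listed fibroblast and stromal markers were in the matrix. The 6 that were tested were higher (*Col1a1*, *Col1a2*, *Col3a1*, *Dcn*, *Pdgfra* and *Pdgfrb*), where 16.7% of all tested genes were. The sum over all 10 was 42.9 to 51.0 FPKM in control libraries and 542, 171 and 172 FPKM in CITED2-deficient replicates 1 to 3. *Col1a1* and *Col1a2* made up most of this sum in every library. *Lum* stayed at or below 0.281 FPKM and *Lepr*, a marker of the marrow stromal cells that make CXCL12, at or below 0.358 FPKM. *Fap*, also below the filter, was at 0.311 to 0.507 FPKM in control and 0.732 to 1.43 in CITED2-deficient libraries. It was called higher when every listed gene was tested (adjusted p = 0.0417 from limma), where 9.9% of 22248 genes were. *Lum*, *Lepr* and *Thy1* (0.319 to 0.576 and 0.417 to 0.857 FPKM) were not called there. *Pdgfrb* entered the test only through the CITED2-deficient libraries. Without CITED2-deficient replicate 1 all 6 calls held, with log2 differences of 1.95 against 2.71 for *Col1a1* and 0.57 to 1.90 for the others. Without this library the log2 fold change of *Cxcl12* was 1.44 (adjusted p = 5.63e-05 from limma) and that of *Cxcl14* was 0.062 (adjusted p = 0.745). In bulk RNA, more stromal cells and more *Cxcl12* RNA per cell cannot be told apart, and the part of stromal cells in this difference was not tested. Of 6 endothelial markers 3 were tested and all were higher, where 16.7% of all tested genes were. The 3 were *Cdh5*, *Vwf* and *Kdr*, of which *Cdh5* entered only through the CITED2-deficient libraries. The sum over all 6 was 11.9 to 14.0 FPKM in control and 38.3 to 42.7 in CITED2-deficient libraries. Most of that gap lay in *Kdr* (means 4.26 and 27.5), with smaller gaps in *Vwf* (7.07 and 10.5) and *Cdh5* (0.720 and 1.52). *Tie1* stayed at or below 0.199 FPKM. *Emcn* (means 0.214 and 0.357 FPKM) and *Esam* (0.476 and 0.985) were also below the filter, with each CITED2-deficient library above every control library. *Tie1*, *Emcn* and *Esam* were not called when every listed gene was tested. The part of endothelial cells was not tested either.

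**Figure D3:**
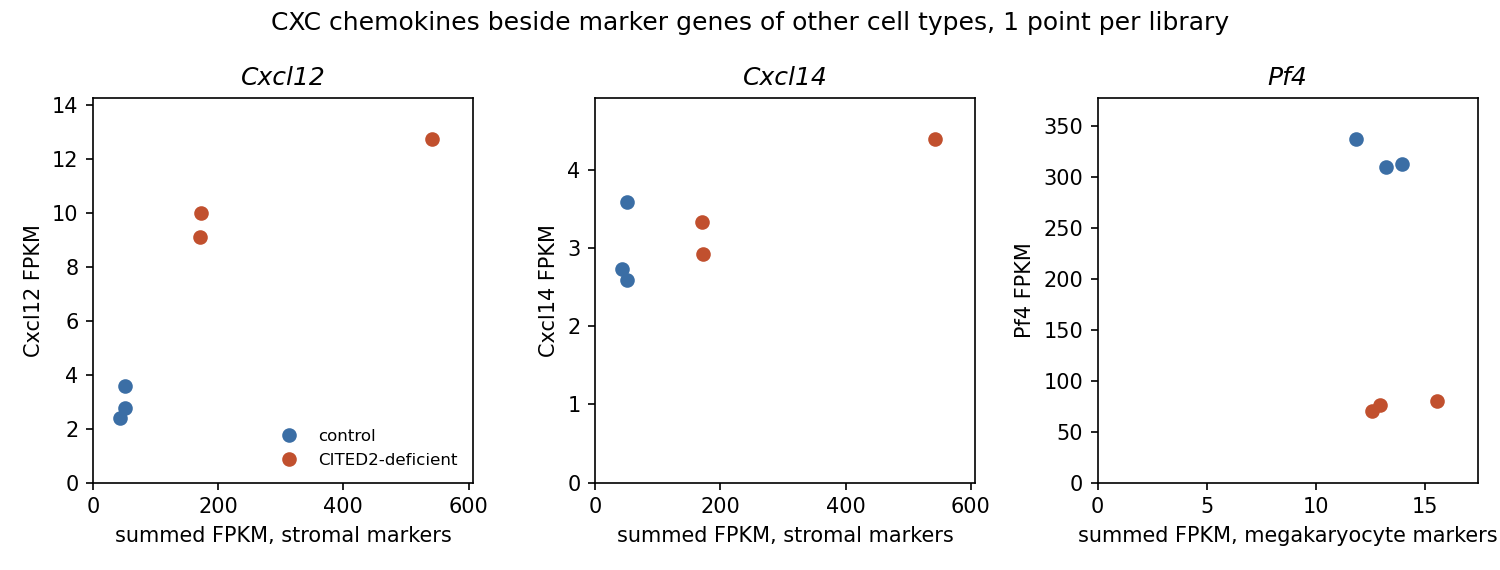
FPKM of *Cxcl12* and *Cxcl14* against the summed FPKM of 10 stromal markers, and of *Pf4* against that of 9 megakaryocyte markers, with control libraries in blue and CITED2-deficient libraries in red. CITED2-deficient replicate 1 lies at 542 on the stromal axis, mostly from *Col1a1* and *Col1a2*. The genotypes overlap on the megakaryocyte axis (11.9 to 14.0 against 12.6 to 15.5) but not in *Pf4*.

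The sum of the 8 chemokines was 419.8 ± 12.6 FPKM (SD, n = 3) in control libraries and 282.7 ± 3.01 (SD, n = 3) without CITED2. Without *Pf4* it was 97.1 to 102 FPKM in control and 207 ± 6.87 FPKM in CITED2-deficient libraries. *Pf4* made up 76.1% ± 1.29 of the sum in control and 26.7% ± 1.82 in CITED2-deficient libraries. The share of *Cxcl16* was 18.9% to 20.6% in control and 46.7% ± 0.587 in CITED2-deficient libraries, and that of *Cxcl10* was 1.11% ± 0.168 and 18.0% ± 2.74. The order of levels was *Pf4*, *Cxcl16*, *Cxcl10*, *Cxcl2*, *Cxcl14*, *Cxcl12*, *Cxcl1* and *Cxcl9* in control BMDMs. In that order the libraries of *Cxcl10* and *Cxcl2*, of *Cxcl2* and *Cxcl14*, and of *Cxcl14* and *Cxcl12* overlapped, and the other neighbors did not. In CITED2-deficient BMDMs the order was *Cxcl16*, *Pf4*, *Cxcl10*, *Cxcl12*, *Cxcl2*, *Cxcl14*, *Cxcl9* and *Cxcl1*, where only *Cxcl9* and *Cxcl1* overlapped. These sums and shares are descriptions.

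**Figure D4:**
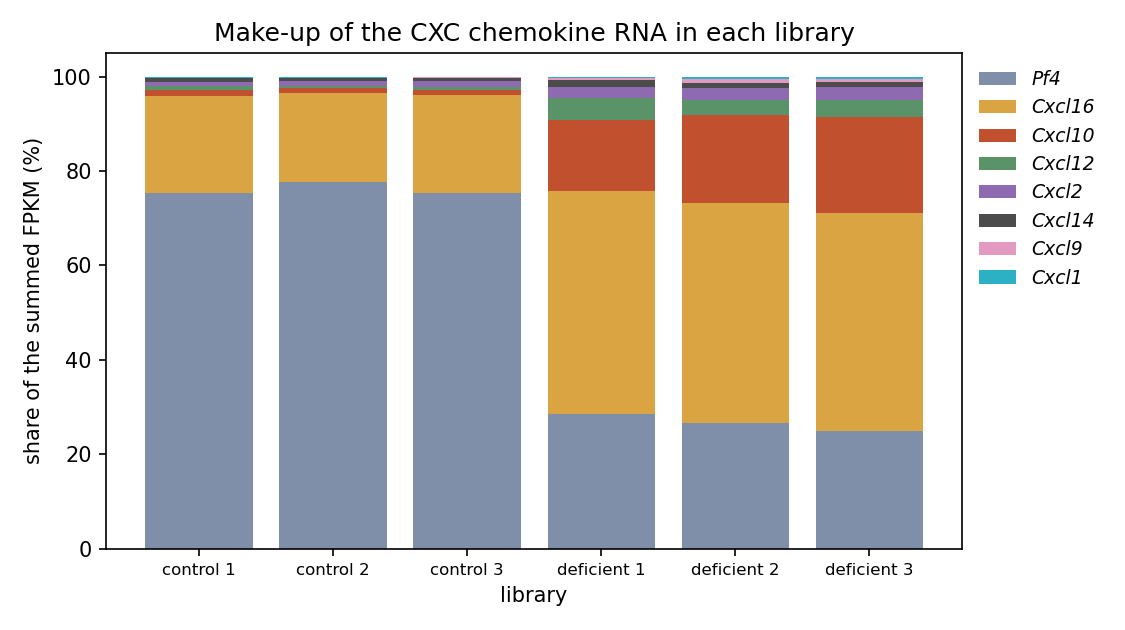
Share of each chemokine in the summed FPKM of the 8 genes, in percent, for the 3 control and 3 CITED2-deficient libraries. *Pf4* takes 75.4% to 77.6% of the sum in control and 24.9% to 28.6% in CITED2-deficient libraries, and *Cxcl16* is the largest part of the latter.

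Replicates varied by more than counting error for most members. In control libraries the coefficient of variation of *Cxcl2* was 32.4%, where counting alone gives 9.76%, and that of *Cxcl12* was 21.2%, where counting gives 7.42%. *Cxcl1* in control (19.9%, counting 20.9%) and *Cxcl16* in control (1.92%, counting 1.86%) and in CITED2-deficient BMDMs (0.749%, counting 1.28%) varied about as much as or less than counting alone.

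Of the 8 members, 5 lie on chromosome 5 among other CXC ligand genes, and *Pf4* had neighbors that were called in the opposite direction. *Cxcl5*, *Ppbp*, *Pf4* and *Cxcl3* start within 26.7 kb of each other, with 2.37 kb between *Ppbp* and *Pf4*. *Ppbp*, another platelet chemokine gene, had 1.47, 2.83 and 2.48 FPKM in control and 4.51, 4.05 and 3.96 in CITED2-deficient libraries, and it rose (log2 fold change 0.69, adjusted p = 0.00623 from limma) where *Pf4* fell. The ratio of *Pf4* to *Ppbp* was 211, 119 and 126 in control and 17.7, 18.7 and 17.8 in CITED2-deficient libraries. *Cxcl5*, whose product is a CXCR2 ligand, passed narrowly (0.47, adjusted p = 0.0421 from limma). Leaving out control replicate 1 (0.28), CITED2-deficient replicate 1 (0.42) or CITED2-deficient replicate 3 (0.46) ended the call. The limma fits with the replicate number as a block (adjusted p = 0.0566), without the variance trend (0.0622) and without a filter (0.123) also ended it. Below the filter, *Cxcl3* gave 2, 5 and 8 fragments in control and 20, 21 and 18 in CITED2-deficient libraries, and *Cxcl11*, next to *Cxcl10*, gave 0, 0 and 1 against 15, 10 and 29. Since the CITED2-deficient libraries were deeper, mean FPKM is given too, at 0.121 and 0.355 for *Cxcl3* and 0.00655 and 0.266 for *Cxcl11*. Both were called higher when every listed gene was tested (adjusted p = 0.0212 and 0.0195 from limma), where 26.2% of 22248 genes were called and 9.9% were called higher. *Cxcl13* gave 2 fragments in 1 control library and none in the others, which allows up to 3 fragments in each of those, for counting error only. *Cxcl15* and *Cxcl17* had no entry under these symbols among the 22248 genes.

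**Figure D5:**
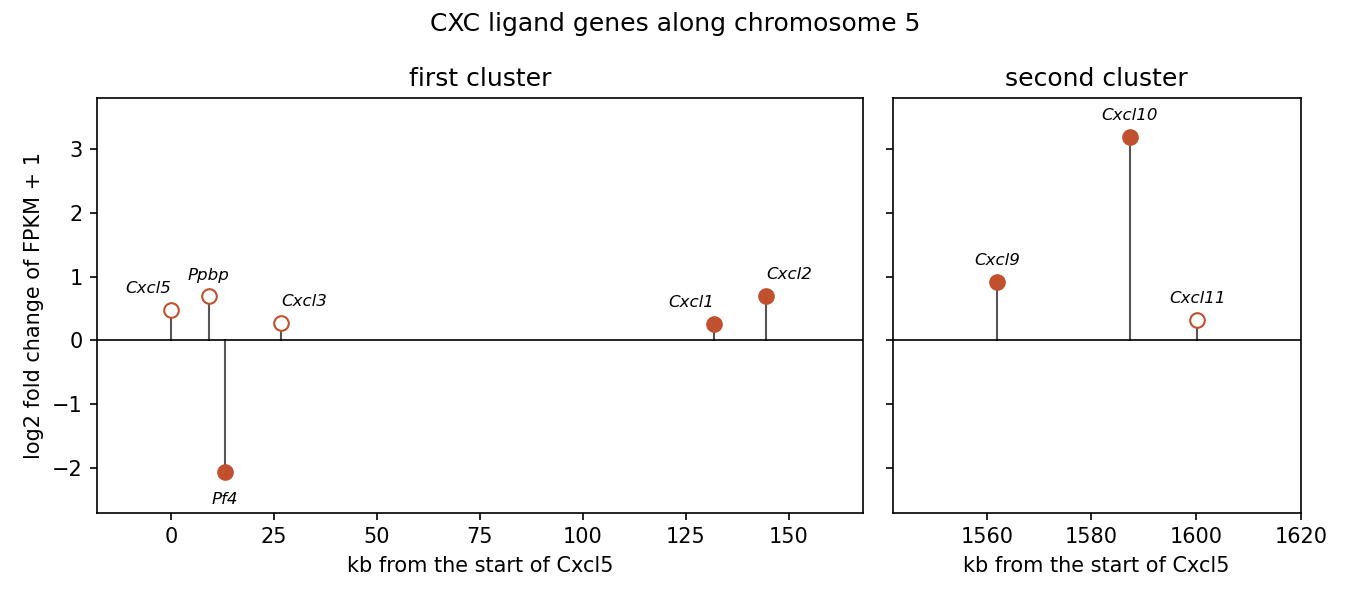
Log2 fold change of FPKM + 1, without a filter on low values, of the CXC ligand genes on chromosome 5 against the distance of each start from that of *Cxcl5* in kb, in 2 panels. Filled points are the 5 members and open points the other ligand genes. *Pf4* is the only gene below 0 among 9, and *Cxcl10* the highest; *Cxcl13*, farther away and nearly undetected, is left out.

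The receptors were read from a list of 8. *Cxcr4*, the receptor of CXCL12, was abundant and rose from 135 ± 7.49 to 196 ± 5.39 FPKM (SD, n = 3 each), with a log2 fold change of 0.54 and standard error 0.04 (limma, adjusted p = 9.53e-06). *Cxcr3*, which CXCL9 and CXCL10 bind, was the only other receptor tested, with 2.78, 3.81 and 2.99 FPKM in control and 3.07, 2.33 and 2.59 in CITED2-deficient libraries, and did not pass (-0.19, adjusted p = 0.240 from limma). *Cxcr2*, the receptor of CXCL1 and CXCL2, was below the filter at 0.201 to 0.240 FPKM in control and 0.852 to 0.942 in CITED2-deficient libraries, and was called higher when every listed gene was tested (adjusted p = 0.0006 from limma). *Cxcr6*, the CXCL16 receptor, did not exceed 0.195 FPKM. *Cxcr5*, *Cxcr1*, *Ackr1* and the scavenging CXCL12 receptor *Ackr3* were also below the filter, with no value above 0.431 FPKM, and none was called without a filter.

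Of 8 proteases that shed or trim CXC ligands, 7 were tested, with a median log2 fold change of 0.70. Of these, 5 were higher and 1 was lower, where 16.7% and 34.6% of all tested genes were. *Mmp14* (1.67) and *Mmp2* (1.48), which cleave CXCL12, had the largest rises among the genes tested, followed by *Mmp12* (1.00) and *Mmp8* (0.70). *Mmp2* was highest in CITED2-deficient replicate 1, at 8.71 against 4.42 and 4.63 FPKM, and without that library the log2 differences were 1.21 for *Mmp2* and 1.55 for *Mmp14* (limma, adjusted p = 0.000209 and 5.06e-05). Of the enzymes that release CXCL16 from the membrane, *Adam17* rose from 135 ± 1.29 to 159 ± 5.22 FPKM (SD, n = 3 each; 0.23, adjusted p = 0.000324 from limma), and *Adam10* stood at 87.0 ± 0.528 and 85.7 ± 1.99 (-0.023, adjusted p = 0.573; 0.072 after median-ratio scaling). *Mmp9* was called lower (-0.24, adjusted p = 0.0408 from limma), a call that ended in 8 of the alternatives, with values from -0.15 to -0.25. *Dpp4*, the peptidase that trims CXCL9, CXCL10 and CXCL12, was below the filter, at 0.0389 to 0.212 FPKM in control and 1.47 to 1.94 in CITED2-deficient libraries, a ratio of means of 12.6, and was called higher when every listed gene was tested (1.26, adjusted p = 0.00026 from limma).

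The interferon pathway to *Cxcl9* and *Cxcl10* was read from 13 genes, all tested, with a median log2 fold change of 0.11. Of these, 6 were higher and 5 lower, where 16.7% and 34.6% of all tested genes were. *Irf7* (3.46) and *Stat2* (2.10) had the largest rises. *Irf1* rose from 73.0 ± 0.736 to 131 ± 12.8 FPKM (SD, n = 3 each; 0.84, adjusted p = 4.99e-06 from limma). *Irf9* (0.67) and *Jak2* (0.29) were also called higher. The receptor chains *Ifngr1* (-0.92), *Ifnar2* (-0.30) and *Ifnar1* (-0.27) were lower, as were *Irf3* (-0.39) and *Jak1* (-0.11), while *Ifngr2* and *Tyk2* were not called. The *Jak1* call was lost after median-ratio scaling (-0.0099, adjusted p = 0.794 from limma) and without the variance trend (adjusted p = 0.0554). *Tyk2* was called higher after median-ratio or quantile scaling and by limma-voom, and *Ifngr2* after median-ratio scaling, where 8 genes of the list were higher and 4 lower. *Ifngr1* and *Irf3* had the largest falls of the list.

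The NFkB genes upstream of *Cxcl1* and *Cxcl2* changed little. Of 10, all tested, 3 were higher and none lower, where 16.7% and 34.6% of all tested genes were, with a median log2 fold change of 0.028. *Nfkbib* (0.28) and *Tnfaip3* (0.27), both inhibitors of the pathway, rose most, and *Rel* (0.18, adjusted p = 0.0458 from limma) kept its call without CITED2-deficient replicate 3 but lost it on leaving out any of the others (0.14 to 0.21), with the replicate number as a block (adjusted p = 0.0630) and without a filter (adjusted p = 0.0806). The lowest values were -0.10 for *Nfkb1* and -0.091 for *Nfkb2* (0.0019 after median-ratio scaling), which did not pass. *Nfkb1* was called lower by limma-voom (adjusted p = 0.0335) and by limma without control replicate 2 (adjusted p = 0.0354). After median-ratio scaling 5 of the 10 were higher. Of 7 regulators of chemokine mRNA decay, 2 were higher and 2 lower, where 51.3% of all tested genes were called in either direction. *Zfp36*, which encodes tristetraprolin, a protein that speeds the decay of chemokine mRNA, rose from 78.4 ± 2.29 to 92.3 ± 4.47 FPKM (SD, n = 3 each; 0.23, adjusted p = 0.00163 from limma), and *Zc3h12a*, which encodes an RNase that cleaves inflammatory mRNA, had 0.21. The related *Zfp36l1* (-0.45) and *Traf3ip2* (-0.31), the adaptor through which interleukin-17 stabilizes *Cxcl1* mRNA, were lower.

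Genes were also ordered by how closely log2(FPKM + 1) followed each chemokine over the 6 libraries, by Pearson correlation (r). For *Pf4* the closest were *Ifngr1* and *Cat* (r = 1.00 and 0.999), for *Cxcl16* *Slamf9* and *Igf2r* (1.00 each), and for *Cxcl10* *Enpp4* and *Psmb10* (1.00 and 0.999). For *Cxcl12* they were *Mxra8* and *Sfrp2* (0.999 each), the latter with a mean FPKM of 1.54 in control and 9.20 in CITED2-deficient BMDMs. These high values are common, since the libraries form 2 groups, and 1764 genes reached 0.95 with *Pf4* and 873 with *Cxcl12*. For the members without a call they were lower and rarer, with *Pip5k1c* (0.985) and *Bbc3* (0.982) for *Cxcl1*, where 10 genes reached 0.95, and *Smug1* (0.979) and *Vdac3* (0.976) for *Cxcl14*, where 11 did. *Ppp1r2* and *Tmco4* (0.989 and 0.988) were closest to *Cxcl2*, and *Golph3l* and *AI427809* (0.989 and 0.988) to *Cxcl9*. How many genes reach such values by chance over 6 libraries was not tested for any member.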

How the data were processed

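RNA of BMDMs was measured in 6 libraries, 3 per genotype. Per the labels and the methods of the study, ribosomal RNA was removed, stranded libraries were sequenced, and the authors mapped reads to mm10 with STAR and deposited Cuffdiff FPKM per gene and library, with a GENCODE annotation. Versions of these tools and of GENCODE were not given in the sources used here. The column names use older names of *Lyz2* and *Cited2* and were matched to titles by these and the replicate number. The members, lists and alternatives were chosen with earlier results of these data known.

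With transcript lengths of GENCODE vM21, 96.1% of 22239 matched genes gave whole fragments (within 0.02) in all 6 libraries, members included. Replicates differed by more than sampling noise (mean chi-square per gene from 2.26 to 5.86) and none was a duplicate. The 11687 genes whose FPKM averaged 1 or more over the 6 libraries entered limma (3.58.1, R 4.3.3), fitted to log2(FPKM + 1) with a trended variance. Changes on this scale understate those of low genes. Nothing in the sources used here states that libraries came from separate mice beyond n = 3, so p-values measure the spread between these libraries. With 3 against 3, an exact permutation p cannot fall below 0.1 and none was used. Named genes are the members, *Cited2*, listed genes (for pathway lists the 2 largest rises and falls, with *Irf1*, *Zfp36*, *Adam10*, *Adam17* and the receptors) and the 2 genes most like each member. Others named from the lists were chosen after their values were seen, and some listed genes are not reported here. Alternatives were other pseudocounts (0.1 and 0.5), filters (none, and 5), scalings, variance models, library weights, a replicate block, limma-voom on recovered fragments, and leaving out each library. Cuffdiff was not repeated, and protein sequences were not used here.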

Additional observations from a re-analysis of the deposited data

How the results depend on the processing

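The 5 higher and 1 lower chemokine calls held under every one of the 16 alternatives in which the gene was tested, and *Cxcl1* and *Cxcl14* were never called. *Cxcl9* was tested in 13 of them. It fell below the filter without CITED2-deficient replicate 2 or 3, its highest libraries, and with a mean FPKM of at least 5, so its call was not examined there. The replicate numbers of the 2 genotypes did not pair the libraries (correlations of deviations from 0.0078 to 0.040), and the replicate block gave 5708 calls over all genes against 5994 without it, and 6 chemokine calls in both.

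Among the other CXC ligands the 2 calls became 0 with a mean FPKM of at least 5, where neither was tested, and 1 with the replicate block and without the variance trend, and ranged from 1 to 2 over the libraries left out. The receptor calls went from 1 to 2 without a filter and the NFkB calls from 3 to 5 after median-ratio scaling. Ordering levels by the median kept 14 of 16 places, with *Cxcl14* and *Cxcl12* exchanged in control. The share of *Cxcl16* in the sum without *Pf4* was 84.0% in control and 63.7% in CITED2-deficient BMDMs. The estimates of *Cxcl1* and *Cxcl9* moved by over 1.5 times with the pseudocount.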
